A study of Mus musculus with 4 samples.

Results

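The genes described here are 10 members of the Notch pathway, chosen by name and with earlier results of these data known. They are the receptors Notch1, Notch2 and Notch3, the ligands Dll1, Dll4 and Jag1, and the target genes Hes1, Hes5, Hey1 and Hey2. All 10 were found on 1 row each, with OK status in every library, among 21831 genes compared. RNA was sequenced from mouse retina (slc:ICR background) at postnatal day 12, after the cells had been sorted into a Cd73-positive fraction (Cd73P), which holds rod photoreceptors, and a Cd73-negative fraction (Cd73N), which holds the other retinal cells. Each fraction was taken from wildtype retina and from Ezh2-cKO retina, in which floxed Ezh2, the gene of the histone H3K27 methyltransferase of PRC2, was deleted by Dkk3-Cre in retinal progenitors, with normal littermates as controls. There were 4 groups with 1 library each, the number of animals behind each library is not given in the sources used here, and no difference below has a replicate check.

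Notch receptors are cut after they bind a Delta or Jagged ligand on a neighbouring cell, and the freed intracellular part enters the nucleus, binds RBPJ and activates genes of the Hes and Hey families. Hes and Hey proteins are basic helix-loop-helix repressors that hold back proneural genes. In the retina the pathway is known for keeping progenitors undifferentiated, for holding back the photoreceptor fate and for favouring the formation of Müller glia, and in vessels for the choice between tip and stalk cells.

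The labels were checked first. Nt5e, which encodes Cd73, was at 0.844 and 0.609 FPKM (fragments per kilobase of exon, scaled to the mapped fragments of the library) in the wild-type and Ezh2-cKO libraries of Cd73N and at 125 and 123 FPKM in those of Cd73P. Ezh2 was at 14.1 and 15.9 FPKM in Cd73N and at 5.38 and 3.45 FPKM in Cd73P. The gene-level Ezh2 value thus went against the label in Cd73N, although such a value need not show the loss of part of a gene, and the knockout libraries are referred to by their label throughout. Between 10323 and 12711 genes reached 1 FPKM in a library, and absolute depth is unknown because the tables hold no counts. The genotypes also differed in sex-linked RNA, with Xist at 52.2 and 240.4 FPKM and the Y-linked Ddx3y at 11.6 and 0.698 FPKM in Cd73N. The sex of the animals and the genotype therefore cannot be told apart. This holds for the members too, although none lies on chromosome X or Y, and the part of sex in their differences was not tested.

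The levels of the members were compared first within each library. In Cd73N wild type the targets Hes1 (16.2 FPKM) and Hey1 (13.0) were the highest and had overlapping deposited bounds, the limits Cufflinks gives for counting error in a library. They were followed by Hes5 and Dll1, whose bounds also overlapped, and Dll4 (1.09) was the lowest. In the Cd73N Ezh2-cKO-labelled library, Hes1 (80.0 FPKM) and Hes5 (21.4) led, with bounds apart from each other and from Hey1 (12.9). In Cd73P the order was another: the ligand Jag1 was the highest in wild type (12.4) and in the Ezh2-cKO-labelled library (16.1), and Notch3 was the lowest at 0.0844 and 0.0707 FPKM. The 4 targets summed to 41.6 and 124 FPKM in Cd73N and to 11.6 and 7.74 FPKM in Cd73P, in the order wild type then Ezh2-cKO-labelled.

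**Figure D1:**
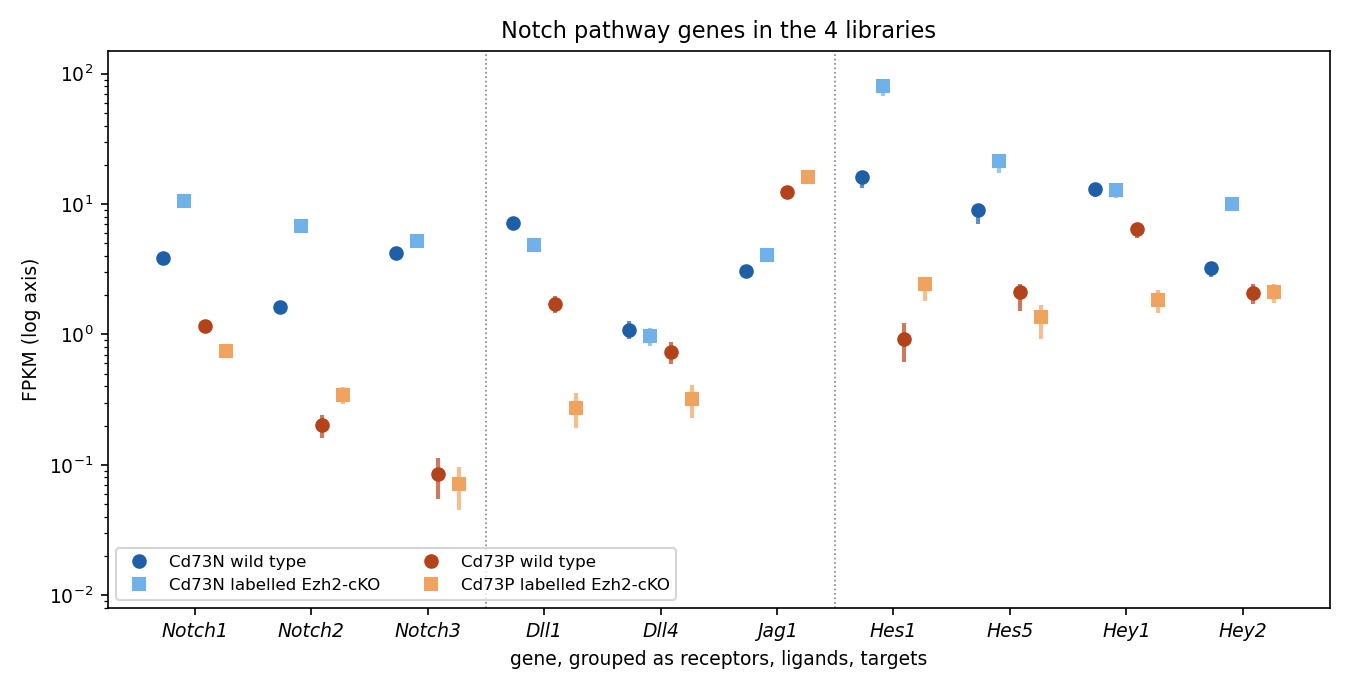
FPKM of the 10 members on a log axis in the 4 libraries, with vertical lines for the deposited lower and upper bounds, which cover counting error within a library only. Hes1, Hes5, Notch1, Notch2 and Hey2 have their highest point in the Cd73N Ezh2-cKO-labelled library, while Jag1 is highest in the Cd73P libraries; the points of Hes1 and Hes5 in Cd73N lie above their own upper bounds.

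Genotypes were next compared within the Cd73N fraction. A gene was called at a 1.5-fold difference of FPKM + 1, the study's threshold; differences are given on the log2(FPKM + 1) scale, which understates those of weakly expressed genes, and each standard error (SE) comes from the deposited bounds and covers counting error only. Among the 10 members 5 were higher in the Ezh2-cKO-labelled library and 0 were lower, namely the receptors Notch1 and Notch2 and the targets Hes1, Hes5 and Hey2. Of 21705 genes tested, 7.18% were called higher and 1.71% lower, with 10.02% and 2.79% among the 12112 genes with a mean of at least 1 FPKM over the 4 libraries. The members had a median log2 difference of 0.74, against 0.000 over all genes tested. Because the members were chosen with earlier results known, the values over all genes give a scale and not a test. In such bulk samples fewer cells of a type and less RNA per cell cannot be told apart.

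Notch1 (mm9 chromosome 2, 26313422 to 26359342) is the receptor most used by retinal progenitors. Its wild-type levels were 3.86 FPKM in Cd73N and 1.17 in Cd73P, and its Ezh2-cKO-labelled levels were 10.5 and 0.753 FPKM. It was thus highest in Ezh2-cKO-labelled Cd73N, 2.71-fold above wild type, with a log2 difference of 1.24 (SE 0.042), and lower in Cd73P with a difference of -0.31 (SE 0.051) that did not reach the threshold. Notch2 (chromosome 3, 97817461 to 97954290) had 1.63 and 6.83 FPKM in the wild-type and Ezh2-cKO-labelled libraries of Cd73N and at 0.201 and 0.345 FPKM in those of Cd73P. The Cd73N libraries differed 4.20-fold, a log2 difference of 1.58 (SE 0.043), and the Cd73P values were both far below them.

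Notch3 (chromosome 17, 32257838 to 32303797), a receptor known from the mural cells of vessels, was at 4.20 and 5.25 FPKM in Cd73N. Its log2 difference was 0.27 (SE 0.049), under the threshold, although the deposited bounds did not overlap. The 8 mural cell markers measured were not called between genotypes in Cd73N, with a median of 0.03, a summed level of 260.2 and 295 FPKM, and none of the defining markers Pdgfrb, Rgs5 and Cspg4 at 0. The receptors therefore differed among themselves in Cd73N, with Notch1 and Notch2 past the threshold and Notch3 not.

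No ligand was called in Cd73N. Dll1 (chromosome 17, 15504318 to 15512787), a Delta ligand of neuronal precursors, had 7.16 FPKM in wild type and 4.86 in its Ezh2-cKO-labelled counterpart, a log2 difference of -0.48 (SE 0.079). Dll4 (chromosome 2, 119151520 to 119161402), a Delta ligand known from endothelial tip cells and from photoreceptor precursors, was at 1.09 and 0.970 FPKM, a difference of -0.09 (SE 0.083) with overlapping bounds. Jag1 (chromosome 2, 136907187 to 136942256), a Jagged ligand, was at 3.06 and 4.05 FPKM, a difference of 0.31 (SE 0.066). By the 1.5-fold call, 0 of 3 ligands, 2 of 3 receptors and 3 of 4 targets were thus higher in Cd73N.

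Among the targets, Hes1 (chromosome 16, 30065443 to 30067882) had the largest genotype difference of the 10 members in Cd73N. It reached 80.0 FPKM in the knockout-labelled Cd73N library and 16.2 in its wild-type counterpart, and 2.43 and 0.925 FPKM in the same pair of Cd73P. The Cd73N libraries differed 4.93-fold, a log2 difference of 2.23 (SE 0.059), and the Ezh2-cKO-labelled library was also the higher in Cd73P. Hes5 (chromosome 4, 154335032 to 154336480), the other Hes effector of Notch in neural progenitors, was at 9.05 and 21.4 FPKM in Cd73N and at 2.12 and 1.36 FPKM in Cd73P, a log2 difference of 1.16 (SE 0.080) in Cd73N. Both Hes1 and Hes5 lay above their own upper bounds in each Cd73N library, so that their SE there rests on bounds that miss the value.

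Hey2 (chromosome 10, 30552165 to 30562589), a Hey repressor known from arterial and cardiac development, was at 3.25 and 9.996 FPKM in Cd73N and at 2.07 and 2.11 FPKM in Cd73P. Its log2 difference was 1.37 (SE 0.084) in Cd73N and 0.02 (SE 0.12) in Cd73P, where the bounds overlapped. Hey1 (chromosome 3, 8663359 to 8667038) had another pattern, with 13.0 and 12.9 FPKM in Cd73N, a difference of -0.02 (SE 0.069), and 6.47 and 1.84 FPKM in Cd73P. The 4 targets therefore fell into 3 that were called higher in Cd73N and Hey1, which was level there.

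Promoter sequences of the members were read for the site that RBPJ is known to bind, GTGGGAA, on either strand. RefSeq promoters (build GRCm38.p6, 250 bases before to 50 after the start site) were found for 8 of the 10 members, with 9 entries, and not for Hes1 and Hey1. The site was in 2 of these 9 entries, those of Hes5 and Hey2, and in each of them it was found 2 times. Of all 32851 promoter entries 6.38% held the site and 0.256% held 2 or more. Of the 41 other pathway genes with an entry, 5 held it: Aph1a, Hes7, Lfng, Psen2 and Spen. The sequences of Hes5 and Hey2 are shown because they are the members that held the site. Both were called higher in Cd73N, as were Notch1 and Notch2, whose entries did not hold it. Of the other pathway genes with the site, Lfng was called higher in Cd73N, while Aph1a, Hes7, Psen2 and Spen were not called. Letters in capitals mark GTGGGAA, or TTCCCAC where it lies on the opposite strand. In Hes5 the matches began at positions -226 and -83, counted from the base before the start site as -1, and in Hey2 at -207 and -4. The second Hey2 match crosses the start site and is given on its own line. A match is a description of these letters and not of binding. Positions are on mm9, by exact match of the RefSeq letters to that genome.
Hes5, chr4:154334782-154335031, plus strand: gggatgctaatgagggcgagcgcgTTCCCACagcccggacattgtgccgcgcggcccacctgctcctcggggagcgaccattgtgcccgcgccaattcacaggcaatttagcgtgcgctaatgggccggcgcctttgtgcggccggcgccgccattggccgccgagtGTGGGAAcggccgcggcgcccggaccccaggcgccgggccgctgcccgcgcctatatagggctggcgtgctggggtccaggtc
Hey2, chr10:30562590-30562839, minus strand: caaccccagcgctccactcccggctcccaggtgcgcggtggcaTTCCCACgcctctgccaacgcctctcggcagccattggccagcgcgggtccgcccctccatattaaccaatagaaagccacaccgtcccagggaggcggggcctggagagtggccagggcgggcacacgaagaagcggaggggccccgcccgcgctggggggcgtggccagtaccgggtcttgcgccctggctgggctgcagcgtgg
Hey2 at the start site, chr10:30562577-30562603, minus strand: gggctgcagcGTGGGAAagaacctcca

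In the Cd73P fraction, 1 member was higher and 2 were lower in the Ezh2-cKO-labelled library, against 2.26% and 2.39% of 21706 genes tested (3.70% and 4.11% of genes with a mean of at least 1 FPKM). Hes1 was the member that was higher, with a log2 difference of 0.83 (SE 0.15) at levels of 0.925 and 2.43 FPKM. Hey1 was lower, at 6.47 and 1.84 FPKM, a log2 difference of -1.40 (SE 0.11), and Dll1 was at 1.72 and 0.274 FPKM, a difference of -1.09 (SE 0.084). As ratios of FPKM the order was reversed, 3.52-fold for Hey1 and 6.26-fold for Dll1. These calls depended on the pseudocount and the threshold: Hes1 and Dll1 were not called with a pseudocount of 5, Hes1 was not called at 2-fold, and Dll4 and Hes5 were called lower with a pseudocount of 0.1. The median over the 10 members was -0.16, against 0.000 over all genes tested.

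The remaining members of Cd73P were under the threshold. Jag1 was at 12.4 and 16.1 FPKM, a log2 difference of 0.35 (SE 0.044), close to its difference of 0.31 in Cd73N. Dll4 was at 0.734 and 0.320 FPKM, a difference of -0.39 (SE 0.077), and Hes5 had a difference of -0.40 (SE 0.16) with overlapping bounds. Notch2 and Notch3 had differences of 0.16 (SE 0.037) and -0.02 (SE 0.026) at levels under 1 FPKM.

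**Figure D2:**
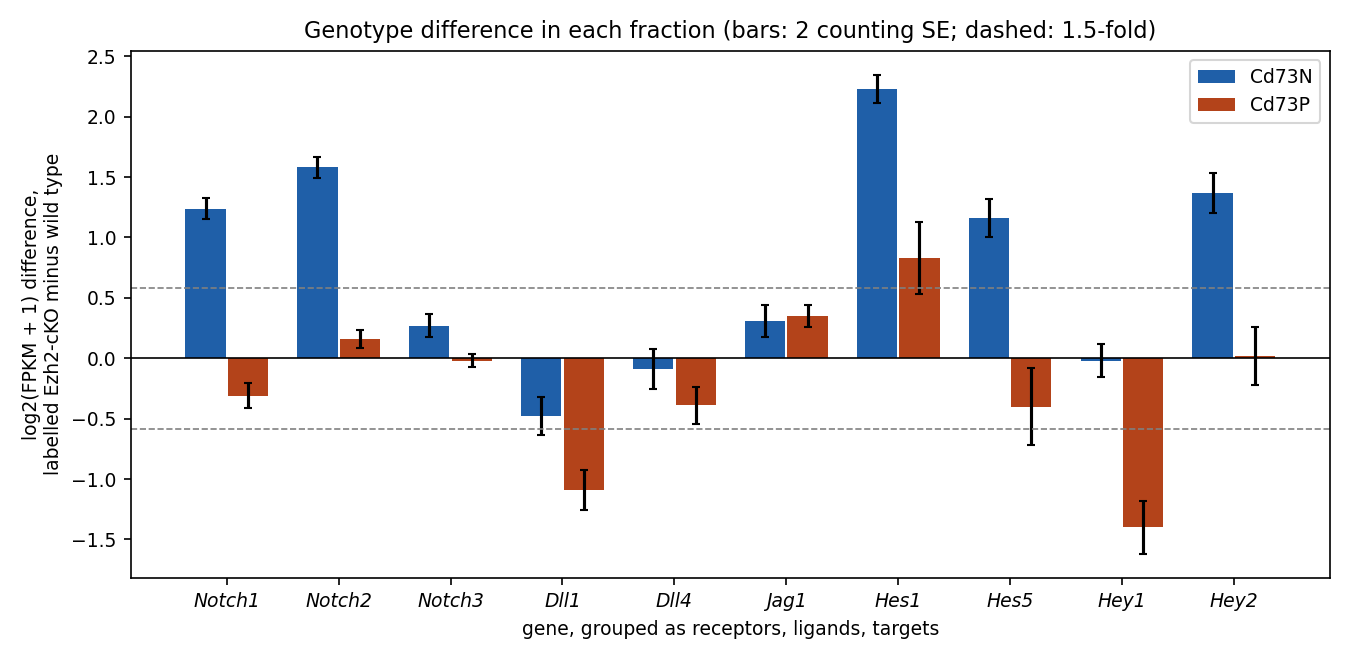
Difference of log2(FPKM + 1) between the Ezh2-cKO-labelled library and wild type for each member in Cd73N and in Cd73P, with error bars of 2 counting SE and dashed lines at 1.5-fold. In Cd73N 5 bars pass the upper line and none passes the lower; in Cd73P Hes1 passes the upper line and Dll1 and Hey1 pass the lower.

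The genotype difference of the same member was set against itself in the other fraction. The difference in Cd73P minus that in Cd73N was between -1.35 and -1.56 on the log2 scale for 6 members, namely Notch1 (-1.55), Notch2 (-1.41), Hes1 (-1.40), Hes5 (-1.56), Hey1 (-1.38) and Hey2 (-1.35). It was -0.61 for Dll1, -0.30 for Dll4, -0.29 for Notch3 and 0.04 for Jag1, with a counting SE of 0.079 for the last. All 4 targets thus had a lower genotype difference in Cd73P than in Cd73N, but its size depended on the pseudocount. With a pseudocount of 0.1 it was -0.99 for Hes1, -1.84 for Hes5, -1.74 for Hey1 and -1.56 for Hey2, and with 5 it was -1.68, -1.07, -0.73 and -0.85. With 1 library per group this difference could not be tested.

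The fractions were then compared within each genotype to see where each member was expressed. In wild type 7 members were higher in Cd73N, 1 was higher in Cd73P and 2 were under the threshold; of 21704 genes, 27.9% were higher in Cd73N and 9.07% in Cd73P (44.7% and 15.6% of genes with a mean of at least 1 FPKM). In the Ezh2-cKO-labelled libraries 8 members were higher in Cd73N and 1 was higher in Cd73P, against 29.1% and 8.40% of 21703 genes (42.9% and 14.2% of genes with a mean of at least 1 FPKM). The median over the members was -1.14 in wild type and -2.42 in the Ezh2-cKO-labelled libraries, against -0.050 and -0.090 over all genes tested and -0.441 and -0.405 over genes with a mean of at least 1 FPKM. Most members were thus at a higher level in the Cd73N cells. The wild-type count higher in Cd73N was 5 with a pseudocount of 5, without Notch1 and Notch2, and 8 with a pseudocount of 0.1 or none, with Hey2. It was 6 with FPKM-sum scaling or a 2-fold threshold, without Hey1.

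The level left in Cd73P differed widely between members. In wild type, Cd73P held 2.01% of the Cd73N level for Notch3, 5.70% for Hes1 and 12.4% for Notch2, but 49.6% for Hey1, 63.5% for Hey2 and 67.0% for Dll4. Notch1, Hes5 and Dll1 lay between them at 30.4%, 23.4% and 24.0%. In the Ezh2-cKO-labelled libraries each of these shares was smaller, at 1.35% for Notch3, 3.03% for Hes1, 7.20% for Notch1, 6.33% for Hes5, 14.3% for Hey1 and 21.2% for Hey2. Marker lists of cells that should be in Cd73N also had smaller shares. The summed Cd73P level as a share of Cd73N was 13.6% in wild type and 4.99% in the Ezh2-cKO-labelled libraries for 12 Müller glia genes. It was 9.28% and 5.58% for 9 bipolar genes and 6.61% and 2.16% for 8 cone genes. For 10 microglia genes it changed less, from 21.0% to 18.9%. In Cd73P itself the Müller glia sum rose from 146 to 251 FPKM. The bipolar and cone sums there fell, from 175 to 60.9 FPKM and from 251 to 115 FPKM. The part of cells carried over between the fractions in the Cd73P values was not tested.

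Jag1 was the exception among the members. Wild-type levels were 3.06 FPKM in Cd73N and 12.4 in Cd73P, and Ezh2-cKO-labelled levels were 4.05 and 16.1 FPKM. Relative to Cd73N, the Cd73P level came to 405% for wild type and 398% for the knockout label, and its log2 differences between fractions were 1.72 (SE 0.058) and 1.76 (SE 0.054). The rod fraction therefore held more Jag1 RNA than the remaining cells in each genotype, at a ratio that was nearly the same.

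**Figure D3:**
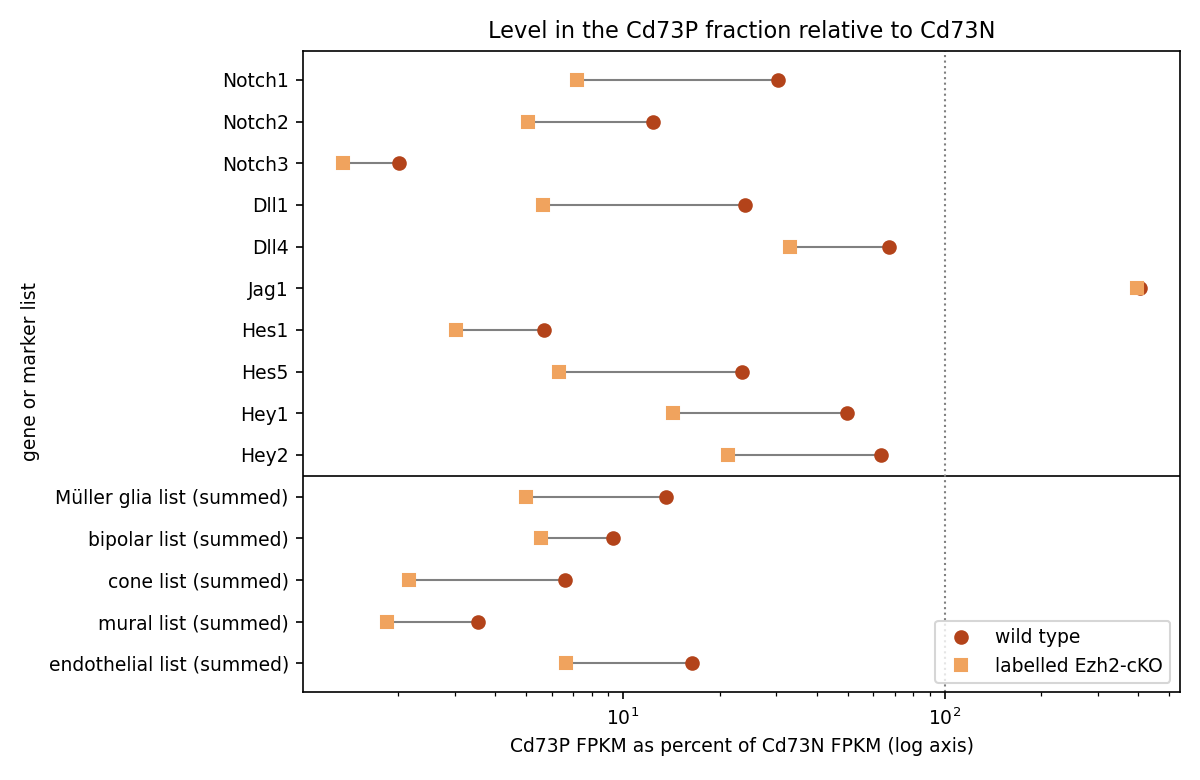
Cd73P FPKM as a percent of Cd73N FPKM on a log axis for each member and for the summed markers of 5 cell types, in wild type and in the Ezh2-cKO-labelled libraries. Jag1 is the only member above 100%, and in every other row the point of the Ezh2-cKO-labelled libraries lies to the left of wild type.

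The other genes of the pathway were taken from a list of 52 genes. In Cd73N, 4 of them were higher and 2 were lower in the Ezh2-cKO-labelled library (7.69% and 3.85%, against 7.18% and 1.71% of all genes tested), so that the share called higher was near the background. In Cd73P 0 were higher and 2 were lower (3.85%, against 2.39% of all genes lower). Their median log2 difference was -0.00 in Cd73N and -0.11 in Cd73P. The 9 genes of receptor cleavage, among them the sheddases Adam10 and Adam17 and the gamma-secretase subunit Ncstn, were not called in either fraction, with differences from -0.34 to 0.48 in Cd73N. Rbpj, the DNA-binding partner of the receptor, was at 7.59 and 7.01 FPKM in Cd73N and at 8.37 and 6.94 FPKM in Cd73P, differences of -0.10 and -0.24. Of 14 genes of the nuclear complex and its co-repressors, Maml2 was called higher in Cd73N (2.67 and 4.83 FPKM) and Tle2, a Groucho co-repressor, was called lower in Cd73P (2.66 and 0.946 FPKM).

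The largest differences outside the members were in Lfng and Nrarp. Lfng (chromosome 5, 141083295 to 141091499), a fringe glycosyltransferase that alters which ligands Notch receives, was at 4.57 and 19.6 FPKM in Cd73N, a log2 difference of 1.88 (SE 0.074), and at 0.167 and 0.394 FPKM in Cd73P. Nrarp (chromosome 2, 25036278 to 25038852), a Notch target that feeds back on the receptor, was at 7.94 and 21.5 FPKM in Cd73N, a difference of 1.34 (SE 0.071), and at 2.38 and 1.29 FPKM in Cd73P, a difference of -0.56 (SE 0.11). Mfng, another fringe gene, was at 27.6 and 18.6 FPKM in Cd73N, a difference of -0.54 (SE 0.054) just under the threshold, and was called lower in Cd73P at 4.73 and 1.497 FPKM. Lfng and Nrarp in Ezh2-cKO-labelled Cd73N, and Mfng in each Cd73N library, lay above their own upper bounds. Their SE in Cd73N thus rests on bounds that miss the value.

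The fringe genes thus differed in direction. Pofut1, which adds the O-fucose that fringe enzymes extend, was at 3.41 and 6.28 FPKM in Cd73N, a difference of 0.72 (SE 0.062). Mib1, a ubiquitin ligase needed for ligand endocytosis, was lower in Cd73N, at 13.4 and 7.54 FPKM and a difference of -0.76 (SE 0.055). Fbxw7, a ubiquitin ligase that marks the active receptor for degradation, was also lower, at 23.6 and 14.1 FPKM and a difference of -0.71 (SE 0.045). Of the other Hes and Hey family genes, Heyl was at 9.27 and 9.71 FPKM and Hes6 at 92.3 and 75.5 FPKM, and neither was called in Cd73N.

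Marker lists were read beside the members, since the members are expressed in several retinal cell types. All 12 Müller glia markers were higher in the Cd73N Ezh2-cKO-labelled library, with a median log2 difference of 2.09 and a summed level of 1073 FPKM in wild type and 5033 FPKM in the Ezh2-cKO-labelled library. In Cd73P 8 of these 12 were higher, with a median of 0.91 and summed levels of 146 and 251 FPKM. Of their defining markers Rlbp1, Glul and Slc1a3, none was at 0. Immediate-early genes, which also respond to handling of cells, moved in the same library: 10 of 12 were higher in Cd73N, with a median of 2.27 and summed levels of 343 and 1578 FPKM, against 3 higher and 2 lower in Cd73P with a median of 0.12. The part of Müller glia content and of immediate-early induction in the differences of Hes1, Hes5, Hey2, Notch1 and Notch2 was not tested.

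Other cell types moved less. Of 11 endothelial markers 2 were higher and 1 was lower in Cd73N, with a median of 0.09; the higher ones were Kdr (22.6 and 86.2 FPKM) and Flt1 (2.86 and 16.2 FPKM), of which Kdr is a defining marker. The other defining markers were not called, with Pecam1 at 0.928 and 1.07 FPKM and Cdh5 at 0.388 and 0.477 FPKM. Summed endothelial levels were 67.0 and 135 FPKM. Of 4 astrocyte markers 2 were higher in Cd73N, among them Gfap, which reactive Müller glia also express, and of 10 microglia markers 4 were higher, with a median of 0.56. Proliferating progenitor markers had 1 of 11 higher in Cd73N, with a median of -0.05 and summed levels of 32.4 and 35.9 FPKM, and Mki67 was at 0.606 and 0.632 FPKM.

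Of the neurons, bipolar markers had 5 of 9 lower in Cd73N with a median of -0.80, and 7 of 9 lower in Cd73P with a median of -1.48. Cone markers had 3 of 8 higher in Cd73N, with a median of 0.35, and 6 of 8 lower in Cd73P, with a median of -0.80. Amacrine markers (6 of the 8 listed were in the tables) had 2 higher in Cd73N with a median of 0.34, and ganglion cell markers had 1 higher and 1 lower of 8 with a median of 0.17. Rod markers had 6 of 8 lower in Cd73N with a median of -1.10, and in Cd73P 2 of the 7 compared were higher with a median of 0.25.

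**Figure D4:**
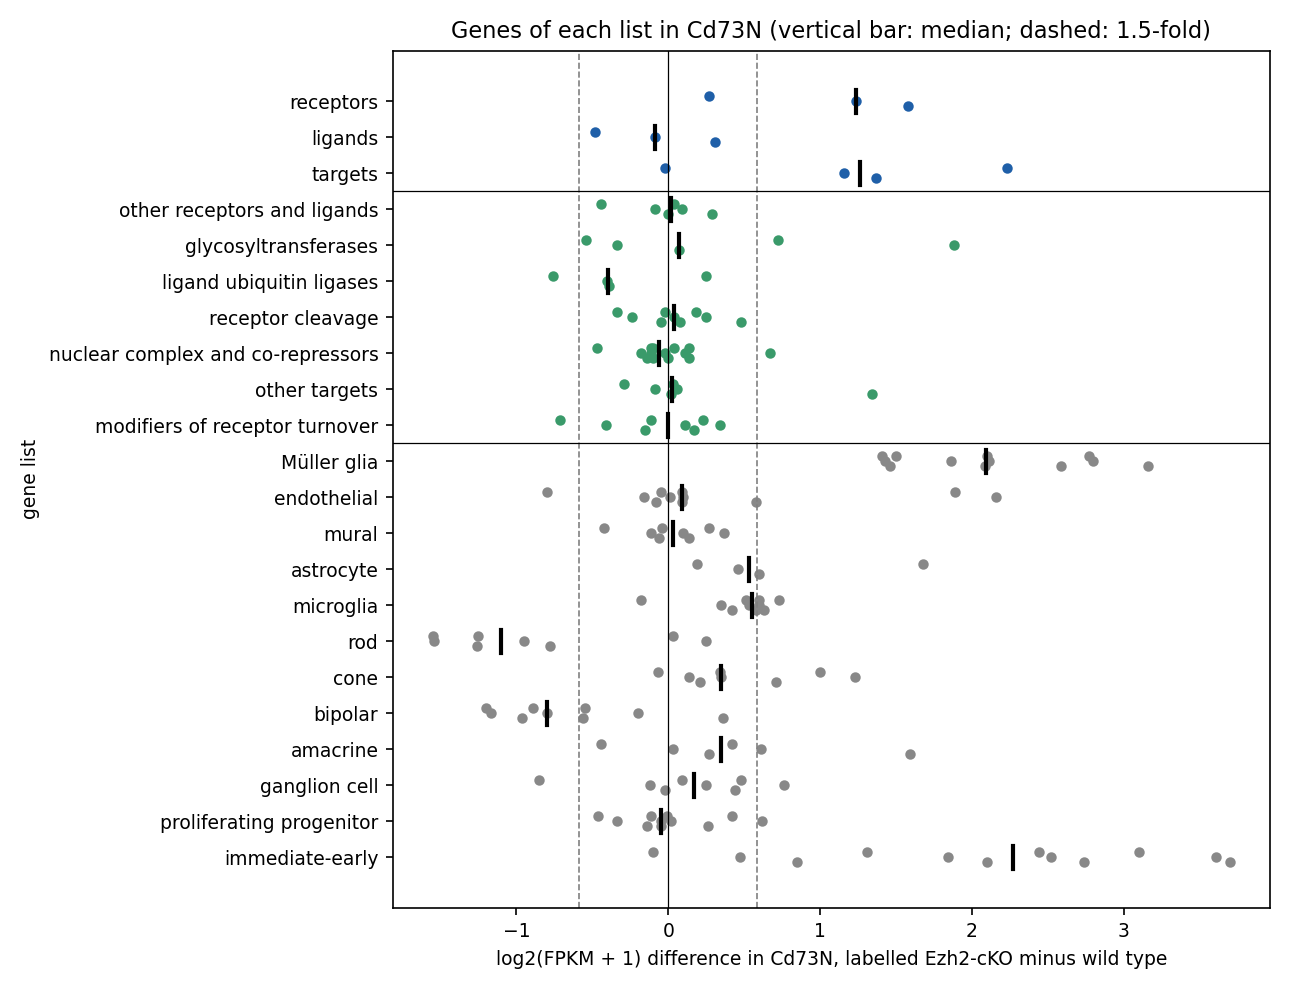
Difference of log2(FPKM + 1) in Cd73N between the Ezh2-cKO-labelled library and wild type, with a point for each gene, a vertical bar at the median of each list and dashed lines at 1.5-fold. The medians of the 3 member receptors (1.24) and the 4 member targets (1.26) lie to the right, although Notch3 and Hey1 do not pass the upper line. The Müller glia (2.09) and immediate-early (2.27) lists also lie to the right. Most other pathway genes lie near 0, with medians of 0.03 for the list labelled other targets and 0.02 for other receptors and ligands.

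The genes with the level pattern most like Notch1, Hes1 and Hes5 were searched among 8598 genes with a mean of at least 5 FPKM, by the distance of their log2(FPKM + 1) values over the 4 libraries after each gene's own mean was subtracted. Nearest to Hes1 were Apoe (distance 0.12), an apolipoprotein made by Müller glia, and the helix-loop-helix inhibitors Id3 (0.22) and Id2 (0.24). Nearest to Notch1 were Zic2 (0.08), Utp14b (0.15) and Acadl (0.25), and nearest to Hes5 were 1810010H24Rik (0.10), Slc9a3r1 (0.14) and Tox3 (0.17). The levels of Zic2, a zinc-finger transcription factor, were 4.81, 13.3, 1.78 and 1.10 FPKM in the order Cd73N wild type, Ezh2-cKO-labelled Cd73N, Cd73P wild type and Ezh2-cKO-labelled Cd73P. A likeness over 4 libraries describes these libraries only.

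The libraries were made without marking strand, so reads of a gene and of an antisense partner cannot be told apart. In the GENCODE annotation on mm9, exons of opposite-strand transcripts overlap exons of Notch1, Notch3, Dll1, Dll4 and Hes5, and the values of these 5 genes may include such reads. No overlapping gene was annotated at Notch2, Jag1, Hes1, Hey1 and Hey2.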

How the data were processed

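Cells of mouse retina at postnatal day 12 were sorted by Cd73, and poly(A) RNA was sequenced as 36-base single-end reads. The authors aligned the reads to mm9 with TopHat 2.0.8b, with at most 50 hits kept for a read, and Cufflinks 2.1.1 gave FPKM of RefSeq genes; the deposited tables hold FPKM with a lower and an upper bound and a status for 23021 rows per library, not scaled between libraries. Rows of small RNAs (784) were left out by name, rows that shared a symbol were summed, and genes without OK status in either library of a pair did not enter its comparison. The scale was log2(FPKM + 1), with genes called at 1.5-fold, the threshold of the study, without a test, because each group had 1 library. SE was taken as the width of the bounds divided by 4. Groups came from the sample titles.

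The members and all gene lists were chosen with earlier results of these data known. All 10 members, Ezh2 and Nt5e are named, as are other pathway genes with at least 5 FPKM in 1 library that were called between genotypes. For Notch1, Hes1 and Hes5 the 3 nearest genes are named. Rbpj, Maml2, Heyl, Hes6, Xist, Ddx3y and the marker genes given were named after their values were seen. The listed starts were 0-based: of 21365 symbols on the same chromosome, 10250 starts equalled GENCODE starts on mm9 after adding 1 and 642 without it, so 1 was added. Alternatives were pseudocounts of 0.1 and 5 and none, scaling by the median ratio or the FPKM sum, a 2-fold threshold, bounds that do not overlap, a mean of at least 1 FPKM, rows of every status, symbols on several rows left out and small RNAs kept. The counting was tested on simulated data, with 2-fold changes in genes with a mean of at least 10 FPKM and counting noise only. That test did not cover changes in genes at lower levels or differences between animals. Python 3.11.15, numpy 2.4.6 and pandas 2.3.3 were used.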

Additional observations from a re-analysis of the deposited data

Results flagged for a closer look

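The genotype difference had opposite signs in the fractions for 3 members. Notch1 had a log2 difference of 1.24 in Cd73N and -0.31 in Cd73P, which differ by -1.55. Hes5 had 1.16 and -0.40, which differ by -1.56, and Notch3 had 0.27 and -0.02, which differ by -0.29. Among the other pathway genes named, Nrarp had 1.34 and -0.56, which differ by -1.90. Ezh2 had 0.17 and -0.52, which differ by -0.69. The medians of 6 marker lists also had opposite signs, with Cd73P minus Cd73N at -0.30 for endothelial, -0.18 for mural, 1.35 for rod, -1.15 for cone, -0.62 for amacrine and -0.37 for ganglion cell markers. No test of these differences could be made with 1 library per group, so they were not tested.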

How the results depend on the processing

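The 5 members higher and 0 lower in Cd73N were the same number under every alternative run, as was Jag1 as the 1 member higher in Cd73P in each genotype. Some alternatives could not change these counts. All 10 members had 1 row and OK status, so the choices on row status and on symbols with several rows left them as they were. The filter on the mean took out only Dll4, which was not called. Of the 25 member differences past the threshold, all kept their sign in the 150 values from other pseudocounts, scalings and the filter on the mean. A change of pseudocount or the filter cannot reverse a sign. The largest shift by scaling, 0.426, was below the threshold of 0.585 on the log2 scale. The kept signs are therefore no check of these differences. In Cd73P the count of members higher went from 1 to 0 with a pseudocount of 5 or a 2-fold threshold and to 2 without a pseudocount, where Notch2 joined Hes1. The count lower went from 2 to 4 with a pseudocount of 0.1, to 1 with a pseudocount of 5 and to 5 without a pseudocount, since a smaller pseudocount enlarges ratios of genes near 1 FPKM. Members with opposite signs in the fractions went from 3 to 5 with FPKM-sum scaling, where Hey1 and Hey2 joined with values near 0. With median-ratio scaling Hey1 joined as well, at 0.05 in Cd73N and -1.40 in Cd73P. FPKM-sum scaling shifted the log2 differences by 0.150 in Cd73N and by 0.426 between fractions in wild type. Median-ratio scaling shifted the latter by 0.313.

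Between genotypes, counts over all genes (higher then lower in Cd73N, then the same in Cd73P) were 1558, 371, 491 and 518, against 3253, 768, 1430 and 1714 with a pseudocount of 0.1, 620, 177, 182 and 132 with 5, 4097, 1163, 2203 and 2583 with none, and 643, 71, 162 and 144 at 2-fold; FPKM-sum scaling gave 188 lower in Cd73N. Genes higher in Cd73P and in Cd73N in wild type went from 1969 and 6056 to 1230 and 3976 with a pseudocount of 5 and to 1074 and 3832 at 2-fold, and the first to 3047 without a pseudocount and to 3239 with FPKM-sum scaling. In the Ezh2-cKO-labelled libraries they went from 1824 and 6317 to 1047 and 4155 at 2-fold, and the second to 4071 with a pseudocount of 5. No paired analysis was possible because each group had 1 library, and for the same reason no replicate could be left out.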
